A study of Mus musculus with 8 samples.

Results

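The 8 oligoadenylate synthetase (OAS) genes Oas1a, Oas1b, Oas1c, Oas1g, Oas2, Oas3, Oasl1 and Oasl2 were examined in osteoblastic cells from the calvaria, the roof of the skull, of WT and Def6-/- mice. The genes were taken by symbol, 8 of the 24421 genes in the tables. Cells were isolated by collagenase and dispase from the skull bones of newborn mice aged 0 to 3 days on the C57BL/6 strain, and were either WT or lacked Def6 in every cell. Libraries were made before differentiation (day 0) and after culture to day 12 in osteogenic medium, which contained β-glycerophosphate (10 mM) as well as ascorbic acid (100 μg/mL), with 2 libraries for each genotype and day and 8 in all. The sources do not say how many animals gave each culture, so the tests measure only the spread between these libraries.

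OAS enzymes bind double-stranded RNA and then join ATP into short 2′-5′-linked oligoadenylates, known as 2-5A. 2-5A acts as a second messenger of antiviral defence. The synthetase genes are classical interferon-stimulated genes, and a factor complex that includes IRF9 drives such genes through an interferon-stimulated response element (ISRE) in their promoters. The mouse has several near-identical copies of Oas1, and the Oasl genes encode relatives with ubiquitin-like domains.

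In GENCODE M21 on GRCm38, the build of mm10, all 8 synthetase genes lay on chromosome 5 in 2 stretches. Oasl2 (chr5:114896936-114912234) and Oasl1 (chr5:114923240-114937915) stood side by side on the plus strand. The other 6 genes began with Oas2 (chr5:120730333-120749853) and Oas3 (chr5:120753098-120777661) and ended with Oas1g (chr5:120876142-120887613) and Oas1a (chr5:120896256-120907521), all on the minus strand. Oas1c (chr5:120800194-120812514, minus strand) and Oas1b (chr5:120812635-120824163, plus strand) pointed away from each other with 121 bases between their starts.

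**Figure D1:**
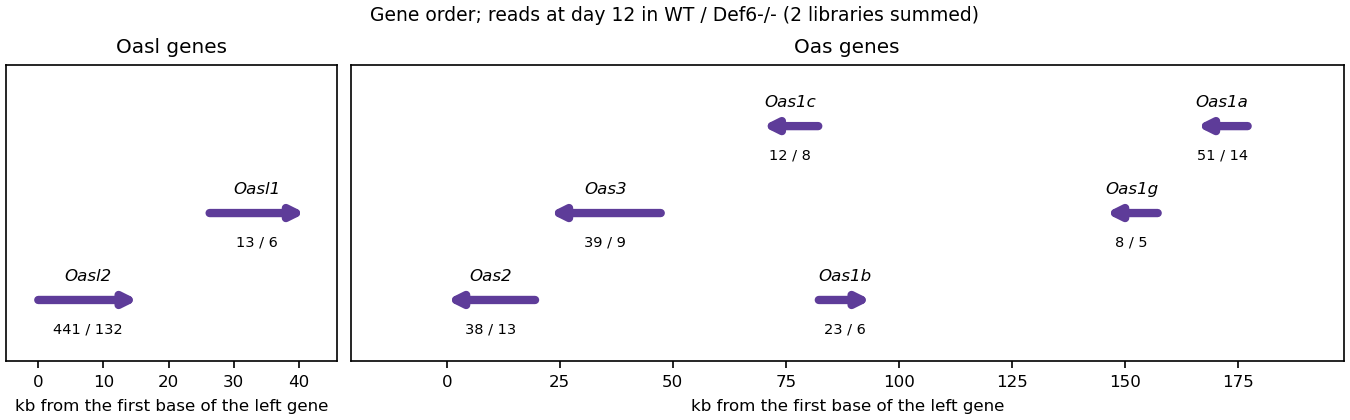
Gene order in the 2 stretches of chromosome 5, drawn to scale, with the x axis in kb from the first base of the left gene and arrows along the direction of transcription. Beneath each gene are the reads of the 2 WT and the 2 Def6-/- libraries at day 12, from 441 and 132 for Oasl2 to 8 and 5 for Oas1g.

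Promoter sequences were searched for the core of the interferon response element. RefSeq (GRCm38.p6) gave windows of 300 bases, from 250 before to 50 after the start, for 6 of the 8 synthetase genes, and Oas1b and Oas2 had no entry. The ISRE core, searched as GAAANNGAAA on both strands, was present in 4 of these 6 windows and in 3.44% of 32851 windows of the same length. Below, 5 windows are printed 5′ to 3′ on each gene's own strand, with the bases of every ISRE core in capitals: the 4 that hold a core, and that of Oasl2, the most abundant member, which holds none.
Oas3 (chr5:120777610-120777909, minus strand): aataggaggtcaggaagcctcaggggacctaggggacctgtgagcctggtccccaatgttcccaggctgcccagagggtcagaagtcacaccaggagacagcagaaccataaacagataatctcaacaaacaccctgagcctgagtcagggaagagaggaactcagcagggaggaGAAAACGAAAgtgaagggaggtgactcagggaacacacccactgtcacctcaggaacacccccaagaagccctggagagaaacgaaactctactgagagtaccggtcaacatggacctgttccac
Oas1a (chr5:120907476-120907775, minus strand): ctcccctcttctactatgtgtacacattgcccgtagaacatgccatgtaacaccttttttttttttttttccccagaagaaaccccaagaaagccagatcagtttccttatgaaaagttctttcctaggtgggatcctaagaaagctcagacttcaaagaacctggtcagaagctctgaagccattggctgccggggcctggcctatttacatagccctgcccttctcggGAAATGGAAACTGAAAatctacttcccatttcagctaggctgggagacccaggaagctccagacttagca
Oas1g (chr5:120887564-120887863, minus strand): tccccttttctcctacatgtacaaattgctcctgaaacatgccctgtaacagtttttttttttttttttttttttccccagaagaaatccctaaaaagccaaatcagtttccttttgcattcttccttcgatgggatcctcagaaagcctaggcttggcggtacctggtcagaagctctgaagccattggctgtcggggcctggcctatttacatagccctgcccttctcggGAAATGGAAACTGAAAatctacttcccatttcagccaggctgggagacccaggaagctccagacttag
Oas1c (chr5:120812465-120812764, minus strand): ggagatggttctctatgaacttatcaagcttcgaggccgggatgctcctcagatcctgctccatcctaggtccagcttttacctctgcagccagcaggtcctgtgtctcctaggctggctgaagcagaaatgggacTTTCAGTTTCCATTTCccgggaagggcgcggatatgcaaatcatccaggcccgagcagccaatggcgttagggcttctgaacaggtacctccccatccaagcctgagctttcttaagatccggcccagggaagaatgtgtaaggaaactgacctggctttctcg
Oasl2 (chr5:114896684-114896983, plus strand): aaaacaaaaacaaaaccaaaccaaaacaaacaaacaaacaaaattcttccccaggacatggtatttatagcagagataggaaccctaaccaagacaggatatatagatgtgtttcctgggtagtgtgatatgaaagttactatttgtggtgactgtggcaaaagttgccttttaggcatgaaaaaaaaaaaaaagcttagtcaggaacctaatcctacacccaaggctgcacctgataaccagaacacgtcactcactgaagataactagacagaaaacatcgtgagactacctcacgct

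In Oas1a and Oas1g the capitals are the same run of 16 bases, which holds 2 overlapping cores and starts at position -20 and -18 from the respective start. Oas3 had 1 core, at position -75. The 16-base run of Oas1c started at position -114 and is the run of Oas1a and Oas1g on the other strand, so the matches of these genes repeat 1 run. The run in Oas1c holds its 2 overlapping cores on the strand of the divergent neighbour Oas1b. It lay 22 to 7 bases before the annotated start of Oas1b. A second element, the GAS site TTCNNNGAA, which reads the same on both strands and was searched across the same windows, was found in Oas1a at position -98 and in 8.30% of all windows. The windows of Oasl1 and Oasl2 held neither of the elements searched, which says only that these letters are not in those windows.

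The depth of the libraries set how much could be seen. Between 2414856 and 3482835 reads fell on genes, 28.8% to 35.3% of all reads handled, and a deposited value of 1 read was worth 0.10 to 0.14 CPM, the unit that scales a gene's reads to the total of all reads handled in that library. Levels are therefore given as reads and as normalized CPM, which is CPM of the reads on genes after scaling by trimmed mean of M values (TMM). Def6, the deleted gene, had 112 to 186 reads in WT libraries and 0 to 2 in Def6-/- libraries. The 10 osteoblast markers summed to 29333 to 43774 normalized CPM at day 0 and 82723 to 117463 at day 12, with collagen I (Col1a1 and Col1a2) giving most of each sum. Of the later markers, Bglap had 0 reads in all day 0 libraries, and Ibsp and Phex had group means of 0.769 to 5.48 normalized CPM at day 0. T and B cell markers were at 0 reads for all 6 genes in all 8 libraries.

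At day 0 the synthetases were close to silent. Summed over the 8 genes, the WT libraries had 17 and 24 reads, and the Def6-/- libraries had 9 and 20. Oasl2, a relative with ubiquitin-like domains, had 6 and 14 of these reads in WT and 2 and 15 in Def6-/-. Oas1g and Oasl1 had 0 reads in all 4 libraries, which allows up to 3 reads per library or 1.02 to 1.18 normalized CPM. The other 5 genes had between 0 and 5 reads in any library at day 0.

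At day 12 in WT, 7 of the 8 synthetases had more normalized CPM in both libraries than in either day 0 library, as did 29.3% of all tested genes, the exception being Oas1c, whose libraries overlapped. Oasl2 had 197 and 244 reads, or 79.4 ± 32.3 normalized CPM (SD, n = 2), against 3.66 ± 1.82 at day 0. Oas1a, one of the enzymatically active short synthetases, had 22 and 29 reads at day 12 against 4 and 0. Oas2, a longer synthetase, had 23 and 15 reads against 0 and 1. Oas3, the longest synthetase and a sensor of long double-stranded RNA, had 27 and 12 reads against 1 and 2. Oas1b, known as the flavivirus resistance gene and annotated as a polymorphic pseudogene in the reference strain, had 10 and 13 reads against 3 and 2. The summed family reached 297 and 328 reads, 13.9 times its day 0 level, with a counting interval of 10.1 to 19.6, and without Oasl2 the ratio was 8.0 with an interval of 5.08 to 13.2. These intervals are exact 95% intervals that cover counting error only and not the spread between libraries.

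Of the 8 synthetases, 5 reached the filter of a mean of 1 CPM in at least 1 group and were tested (Oas1a, Oas1b, Oas2, Oas3 and Oasl2), and 4 of these reached it only through WT at day 12, the group where they were high. A count over these 5 is therefore a description. In limma over all 12348 genes tested, on log2(normalized CPM + 1) with Benjamini-Hochberg adjustment, the rise from day 0 to day 12 in WT passed adjusted p 0.05 for all 5, where 12.7% of all tested genes rose. Oasl2 rose by 4.11 ± 0.57 (log2, SE, adjusted p = 0.00169) and Oas2 by 2.68 ± 0.44 (adjusted p = 0.00392). Oas1a rose by 2.61 ± 0.67 (adjusted p = 0.0271) and Oas3 by 2.23 ± 0.47 (adjusted p = 0.0114). Oas1b rose by 1.37 ± 0.41 with adjusted p = 0.0472, close to the threshold, and lost this call when any 1 of the 8 libraries was left out. The call of Oas1a was lost without either WT library of day 12, and that of Oas3 without the first of them. With a pseudocount of 0.1, only the calls of Oas2 and Oasl2 remained. Oas1g and Oasl1 were under the filter, and with 0 reads at day 0 their 8 and 13 reads at day 12 put them at least 1.22-fold and at least 1.98-fold higher, against the floor of 3 reads per library. Oas1c, a copy thought to lack synthetase activity, had 12 reads at day 12 against 8 at day 0, a ratio of 1.37 with a counting interval of 0.515 to 3.86.

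In Def6-/- cells the synthetases also stood higher at day 12 than at day 0. The summed family went from 9 and 20 reads to 111 and 82, a ratio of 7.79 with a counting interval of 5.26 to 11.9. Oasl2 rose by 3.11 ± 0.57 (log2, SE, limma adjusted p = 0.00642), a call that was lost without the first Def6-/- library at day 12, and 12% of all tested genes rose in this comparison. Oas2, with a difference of 1.35 ± 0.44 (adjusted p = 0.0728), and Oas3, with 1.21 ± 0.47 (adjusted p = 0.118), did not pass. Nor did Oas1a, at 0.97 ± 0.67 (adjusted p = 0.379), or Oas1b, at 0.57 ± 0.41 (adjusted p = 0.400). In 7 of the 8 genes both day 12 libraries were above both day 0 libraries, as they were for 35.2% of all tested genes, and here the exception was Oas1a. Oas1c, Oas1g and Oasl1, under the filter, had 8, 5 and 6 reads over the 2 libraries at day 12 and 1, 0 and 0 at day 0. The WT and Def6-/- libraries are separate, so the differences in these day comparisons share no libraries with each other. Their limma tests do share a spread, taken for each gene from all 8 libraries, and so are not independent. Each day comparison also shares its libraries with the genotype comparisons below.

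**Figure D2:**
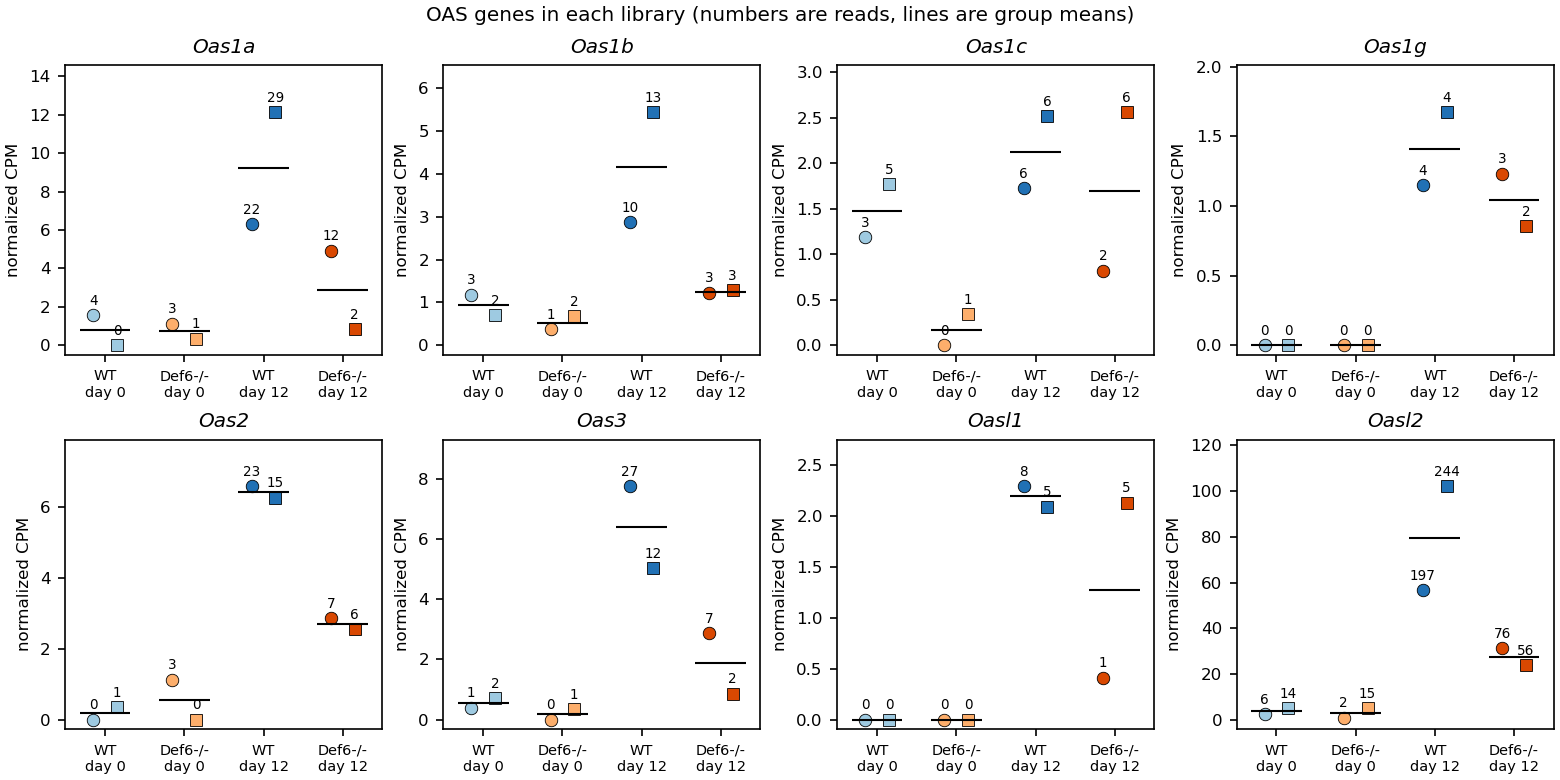
Normalized CPM (y axis, its own scale in each panel) of the 8 synthetase genes in each library, by genotype and day, with circles for replicate 1, squares for replicate 2, the reads above each point and a line at the group mean. For Oas1a, Oas1b, Oas2, Oas3 and Oasl2 both Def6-/- libraries at day 12 lie under both WT libraries.

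The comparison of genotypes at day 12 asked whether loss of Def6 altered the synthetases in differentiated cultures. All 8 had a lower mean in Def6-/- than in WT cells, and for 5 of the 8 the higher Def6-/- library was still under the lower WT library, as it was for 15.9% of all tested genes. For Oas1c the direction rested on 1 library, and without the first Def6-/- library at day 12 its log2 difference turned from -0.28 to 0.20, while that of Oasl1 went from -0.60 to -0.03. Summed over the family, the Def6-/- libraries had 111 and 82 reads against 297 and 328 in WT, which is 45.6 and 35.0 normalized CPM against 85.2 and 137. The summed reads were 2.63 times higher in WT, with a counting interval of 2.24 to 3.11, and without Oasl2 they were 2.45 times higher, with an interval of 1.83 to 3.33. In bulk RNA, fewer cells of a type and less RNA per cell cannot be told apart.

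Oasl2 had 76 and 56 reads in Def6-/- at day 12 against 197 and 244 in WT. Its level was 27.6 ± 5.16 normalized CPM (SD, n = 2) against 79.4 ± 32.3, a log2 difference of -1.44 ± 0.57 (SE) with a 95% interval of -2.75 to -0.14. Oas1a had 12 and 2 reads against 22 and 29, and its Def6-/- libraries, at 4.93 and 0.854 normalized CPM, were further apart than the higher of them was from the lower WT library, at 6.31. Oas1a had a log2 difference of -1.56 ± 0.67 with an interval of -3.08 to -0.05, and the difference ranged from -2.40 to -0.73 when 1 library was left out. Oas1b had 3 reads in each Def6-/- library against 10 and 13 in WT, a log2 difference of -1.15 ± 0.41 with an interval of -2.07 to -0.23.

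Among the longer synthetases, Oas3 had 7 and 2 reads in Def6-/- against 27 and 12 in WT, a log2 difference of -1.44 ± 0.47 with an interval of -2.50 to -0.38. Oas2 had 7 and 6 reads against 23 and 15, and its 2 libraries were close within each genotype, at 2.72 ± 0.22 against 6.44 ± 0.23 normalized CPM. Its log2 difference of -1.0 ± 0.44 had an interval of -2.01 to 0.0059, which just includes 0. Oas1a, Oas1b, Oas3 and Oasl2 thus passed the rule of the study, an unadjusted p under 0.05 and more than 1.2-fold, in the direction of lower in Def6-/-, as did 0.591% of all tested genes. Of the 5 tested synthetases, 4 had reached the filter only through WT at day 12, the higher group of this comparison. The selection favours this direction, so the count of calls is a description. None of the synthetases passed after adjustment over all genes (limma adjusted p = 1 for each of the 5), and 0.0081% of tested genes did in either direction. By the same unadjusted rule edgeR's quasi-likelihood test on recovered reads called 3 of the synthetases and DESeq2 called 1, and neither called any after adjustment. With a pseudocount of 0.1 in place of 1, which weighs low values more, limma called 0 of them. Calls rested on single libraries: without the second Def6-/- library at day 12 no synthetase passed, without the second WT library only 1 did, and without the first Def6-/- library 2 did.

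The 3 genes under the filter had few reads in both genotypes. Oasl1, a relative without synthetase activity, had 1 and 5 reads in Def6-/- against 8 and 5 in WT, a WT to Def6-/- ratio of 1.76 with a counting interval of 0.625 to 5.66. Oas1g had 3 and 2 reads against 4 and 4, a ratio of 1.30 with an interval of 0.375 to 5.06. Oas1c had 2 and 6 reads against 6 and 6, a ratio of 1.22 with an interval of 0.459 to 3.44. These intervals include both no difference and the sizes seen for the 5 tested genes except, for Oas1c, the ratio of 3.53 seen for Oas3, so a difference was not detectable at this depth. Over all 8 genes, fitted without the filter, the median log2 difference was -1.07 with a range of -1.56 to -0.24, and the median over all tested genes was -0.0005.

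**Figure D3:**
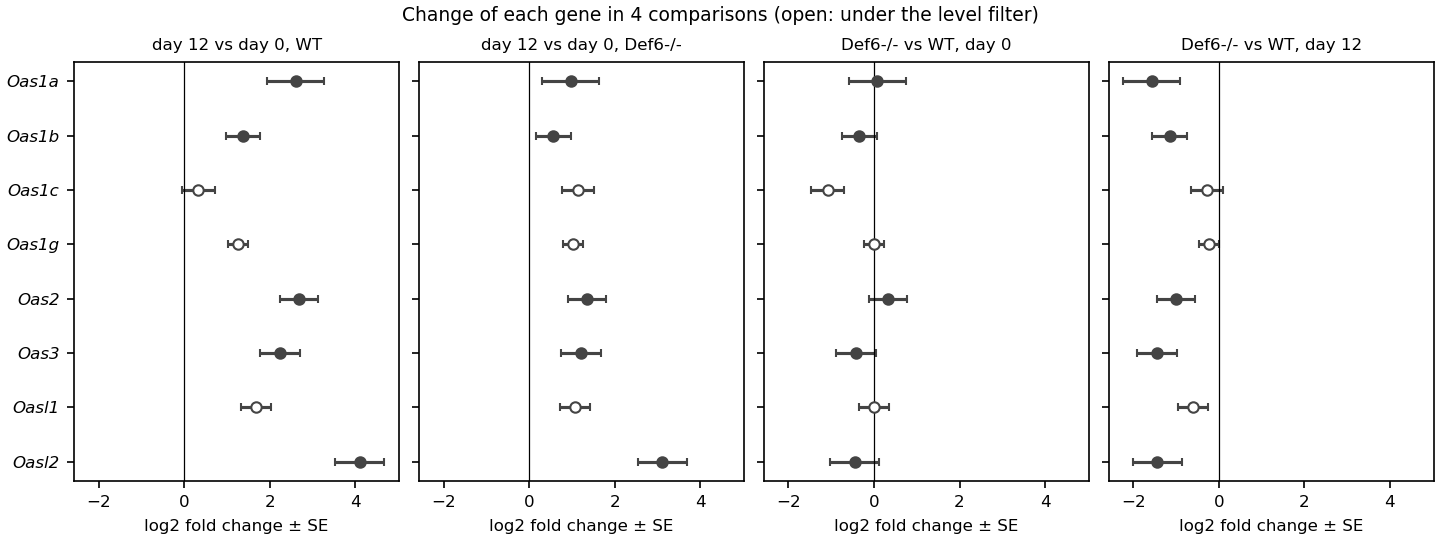
Log2 fold change with its SE (x axis) of each gene in the 4 comparisons, for the 8 synthetases, where filled points are genes that passed the level filter and open points genes under it. At day 12 the 8 synthetases sit between -1.56 and -0.24 in Def6-/- against WT.

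At day 0 no synthetase passed the same rule for lower in Def6-/- by limma, edgeR or DESeq2, and by limma 1.31% of all tested genes did. The summed reads of the family were 1.47 times higher in WT, with a counting interval of 0.894 to 2.46. Without Oasl2 they were 1.83 times higher, with an interval of 0.858 to 4.07. Both intervals include no difference. The log2 differences of the 5 tested genes ran from -0.45 ± 0.57 for Oasl2 to 0.33 ± 0.44 for Oas2, and the interval for Oasl2, -1.75 to 0.85, includes the difference seen at day 12. After adjustment, 0.0081% of tested genes passed at day 0 in either direction, and no synthetase was among them. Oas1c, under the filter, had 0 and 1 reads in Def6-/- against 3 and 5 in WT, and fitted without the filter it passed the unadjusted rule with a limma adjusted p = 0.936. The difference between the genotypes in the rise from day 0 to day 12 was also tested directly. Fitted without the filter for the 3 genes under it, it was negative, a smaller rise in Def6-/-, for 7 of the 8 genes and positive for Oas1c, at 0.81. The 5 tested genes, 4 of which had reached the filter only through WT at day 12, ran from -0.80 ± 0.57 for Oas1b to -1.64 ± 0.94 for Oas1a, and none passed p 0.05 by limma, edgeR or DESeq2, where by limma 0.421% of all tested genes did in that direction. Oas2 had the smallest p, with -1.33 ± 0.63 and an interval of -2.75 to 0.10.

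**Figure D4:**
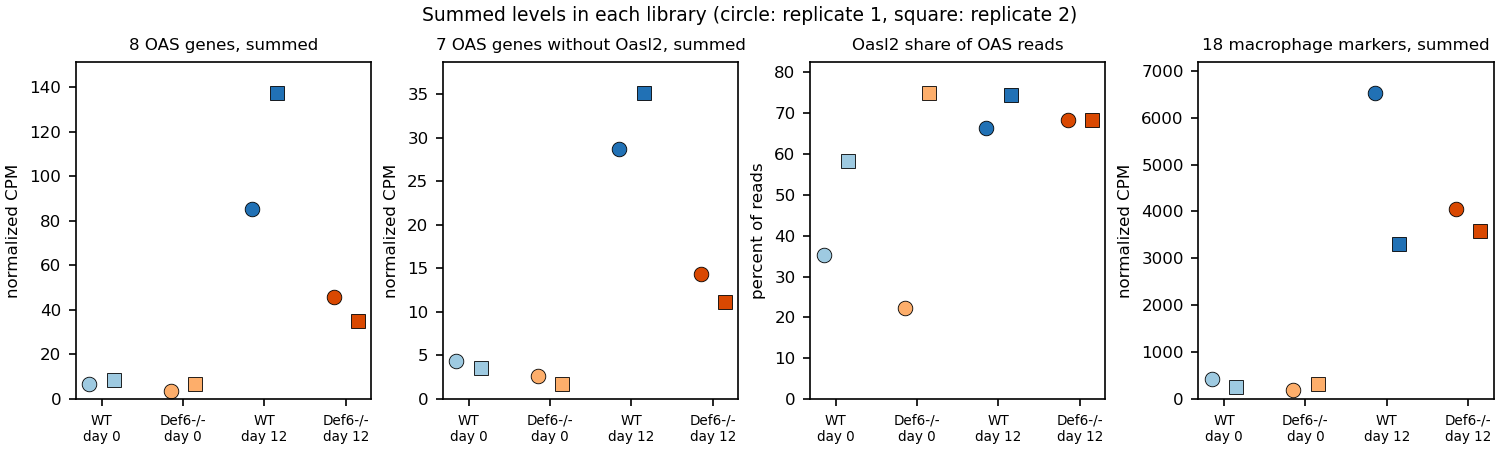
From left to right, the summed normalized CPM of the 8 synthetases, the same without Oasl2, the percent of synthetase reads that came from Oasl2, and the summed normalized CPM of 18 macrophage markers, in each library by genotype and day. At day 12 the synthetase sum is 85.2 and 137 in WT and 45.6 and 35.0 in Def6-/- (replicates 1 and 2). The macrophage marker sum is 6529 and 3299 in WT and 4059 and 3592 in Def6-/-, in the same order.

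Per length, the members differed widely in level. In WT at day 12, Oasl2 was highest at 12.5 ± 5.06 normalized CPM per kb of exon (SD, n = 2), followed by Oas1a at 4.90 ± 2.19, with no overlap between their libraries. Oas1b, at 2.09 ± 0.91, and Oas2, at 1.45 ± 0.05, overlapped. Oas3 (0.904 ± 0.273), Oas1c (0.880 ± 0.232) and Oasl1 (0.842 ± 0.055) could not be ranked among themselves, and Oas1g, with 8 reads, had 0.603 ± 0.159. In Def6-/- at day 12, Oasl2 was again highest (4.32 ± 0.81 normalized CPM per kb) with no overlap, and the other 7 genes lay between 0.121 and 2.61 in single libraries with overlapping neighbours. Oasl2 made up 66.3% and 74.4% of all synthetase reads in the WT libraries at day 12 and 68.5% and 68.3% in the Def6-/- libraries, and the shares of the genotypes overlapped. The exact 95% intervals of these shares, for counting error only, were 60.6% to 71.7%, 69.3% to 79.0%, 59.0% to 77.0% and 57.1% to 78.1%.

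Sequence shared between copies limits what the reads of some members mean. Of the 50-base stretches in the annotated transcripts of Oas1a, 57.6% also occurred in transcripts of Oas1g, and 45.7% of those of Oas1g occurred in another gene, Oas1a for most. A read that lies wholly within shared sequence cannot be placed uniquely, and how many reads did so was not measured. To that extent the reads of both genes are those from their own remaining sequence. Their levels per length, taken over the full exon length, and their places in that order are therefore uncertain. Oas1c shared 15.1%, in part with its opposite-strand neighbour Gm43069, whose exons overlap 227 of its bases, and for Oasl1 the opposite-strand gene Gm13822 overlaps 38 bases. Oas1b shared 2.98%, and the other members less than 1%. The 4 further copies Oas1d, Oas1e, Oas1f and Oas1h were at 0 reads in all 8 libraries.

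Of 4 genes that break down 2-5A or act beside the synthetases, none passed between genotypes at day 12, with log2 differences of -0.25 to 0.03: Abce1, a ribosome recycling factor, Pde12 and Akap7, phosphodiesterases that degrade 2-5A, and Mb21d1, which encodes the related nucleotidyltransferase cGAS. From day 0 to day 12 Abce1 decreased in both genotypes, by a log2 difference of -0.95 ± 0.17 in WT (limma adjusted p = 0.00541) and -0.87 ± 0.17 in Def6-/- (adjusted p = 0.00843), where 5.63% and 4.79% of all tested genes fell. Pde12 fell in Def6-/- (-0.95 ± 0.25, adjusted p = 0.0333) and had -0.71 ± 0.25 in WT (adjusted p = 0.0869). Akap7 and Mb21d1 passed in neither genotype, with 11 to 28 reads per library.

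Among 8 other genes of the sensing, binding and signalling of double-stranded RNA, 6 rose from day 0 to day 12 in WT and 1 in Def6-/-. Of all tested genes, 12.7% and 12% rose. The difference between the genotypes in this rise passed an unadjusted p of 0.05 by limma for 1 of the 8, and for none after adjustment. At day 12, 2 of the 8 were lower in Def6-/- by the unadjusted rule, Zbp1, a Z-form nucleic acid sensor, at -1.41 ± 0.34, and Dhx58, which encodes LGP2, at -0.89 ± 0.38, both with limma adjusted p = 1. By that rule 0.591% of all tested genes were lower, and the median of the 8 was -0.45. Eif2ak2, the kinase PKR, had -0.49 ± 0.32 and Ddx58, the sensor RIG-I, had -0.44 ± 0.30, and neither passed.

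Of 11 genes of interferon signalling, 10 were tested. Ifnb1, the interferon β gene itself, had 2 reads in 1 Def6-/- library at day 12 and 0 in the other 7. In WT 5 of the 10 rose from day 0 to day 12 and in Def6-/- 4 rose, where 12.7% and 12% of all tested genes rose. At day 12, Irf7, a regulator of interferon genes, was lower in Def6-/- by the unadjusted rule, at -1.43 ± 0.47, as was Irf9, part of the factor that binds the ISRE, at -0.65 ± 0.28, both with limma adjusted p = 1. By this rule 0.591% of all tested genes were lower. Irf7 was lower by it at day 0 as well, at -1.30 ± 0.47 (limma adjusted p = 0.908), as were 1.31% of all tested genes. Stat2 (-0.61 ± 0.33) and Usp18, a brake on interferon signalling (-1.23 ± 0.57), did not pass, and the receptor genes Ifnar1 and Ifnar2 had 0.03 ± 0.17 and 0.06 ± 0.23. Oasl2 and several of these sensors and factors were among the interferon-stimulated genes that the study displayed from these same libraries, so their direction at day 12 is not independent evidence.

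**Figure D5:**
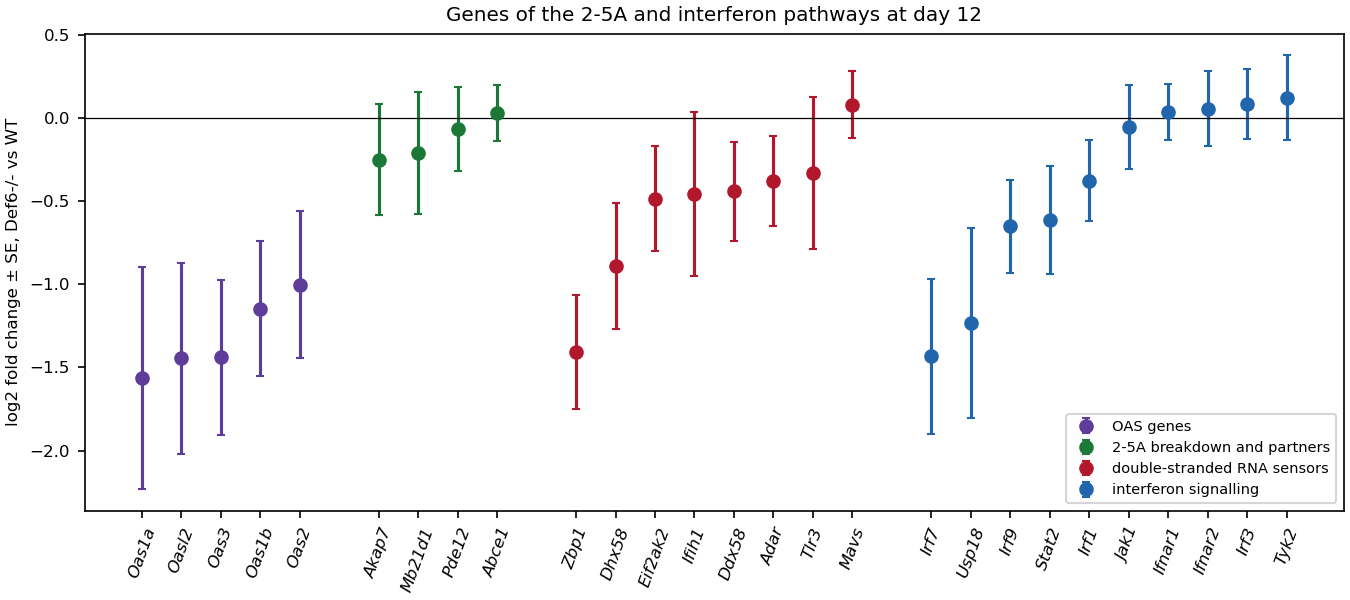
Log2 fold change with its SE (y axis) in Def6-/- against WT at day 12, ordered by value within each group. The groups are the tested synthetases, 4 genes of 2-5A breakdown and partners, 8 of double-stranded RNA sensing, binding and signalling, and 10 of interferon signalling. The synthetases lie between -1.56 and -1.0, next to Irf7 (-1.43) and Zbp1 (-1.41), and the genes of 2-5A breakdown lie between -0.25 and 0.03.

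Over the 8 libraries, the genes whose pattern was most like the mean standardized level of the 5 tested synthetases were Zbp1 (Pearson r = 0.986), Rtp4 (0.983), Kctd1 (0.983), Phf11d (0.978) and H2-Q4 (0.976). These values describe 8 libraries in 4 groups and carry no test.

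Markers of other cells were present at levels that changed with day. The 18 macrophage markers summed to 260 and 434 normalized CPM in WT and 197 and 317 in Def6-/- at day 0, and to 6529 and 3299 in WT and 4059 and 3592 in Def6-/- at day 12. From day 0 to day 12, 16 of the 18 rose in WT and 15 in Def6-/-, beside the rise of the synthetases. Of all tested genes, 12.7% rose in WT and 12% in Def6-/-. Between genotypes at day 12 all 18 had a negative log2 difference in Def6-/- against WT, from -0.68 to -0.04 with a median of -0.32. None of them passed the unadjusted rule, and the genotypes overlapped in the summed level. In the WT libraries at day 12, replicate 1 had the higher macrophage marker level and the lower synthetase sum. In the Def6-/- libraries at day 12, replicate 1 was the higher in both, with a synthetase sum of 45.6 against 35.0 normalized CPM. Of 6 tested adipocyte markers, 4 passed the unadjusted rule for higher in Def6-/- at day 12, as did 0.81% of all tested genes. These were Adipoq, Plin1, Cfd and Fabp4 (1.28 to 1.91, limma adjusted p = 1 for each). Lpl (0.33 ± 0.17) and Pparg (-0.13 ± 0.30) did not pass. The list summed to 311 to 334 in WT and 427 to 439 in Def6-/-. Lpl, at means of 287 and 362, gave most of these sums. Bglap, encoding osteocalcin, was the 1 of 10 osteoblast markers that passed the unadjusted rule for higher in Def6-/-, at 1.13 ± 0.34 (limma adjusted p = 1). Over both genotypes, endothelial markers summed to 0.789 to 5.45 normalized CPM at day 0 and 10.9 to 13.1 at day 12. Cartilage markers were lower at day 12, with sums of 719 to 1103 against 1890 to 3736 at day 0. The part of any of these cells in the synthetase levels was not tested.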

How the data were processed

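Per the labels and the study's methods, the authors selected poly-A RNA, made libraries with the NEBNext Ultra II kit, trimmed reads with fastp, used HISAT2 for alignment to mm10 and HTSeq for counting, and deposited CPM values from edgeR, relative to all reads handled. Versions, annotation and strand setting are not given in the sources used here. Values were whole multiples of 1 read for 99.957% of positive values, and for all values of the members. The reads thus recovered were rescaled to reads on genes with TMM factors. limma 3.58.1 (lmFit, eBayes with trend) was fitted in R 4.3.3 to log2(CPM + 1) of the 12348 genes whose deposited CPM averaged 1 or more in any group, with 4 group means, two-sided, and was tested on simulated data. A fold change on this scale understates low genes. edgeR 4.0.16 and DESeq2 1.42.0 on recovered reads were alternatives. Read ratios carry exact 95% intervals. Genes were named as all members, the called genes and some chosen uncalled genes of 4 pathway lists, and the 5 genes most like the members. The members and lists were chosen with earlier results of these data known. Protein sequences were not used here, and some genes of the planned lists are not reported here.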

Additional observations from a re-analysis of the deposited data

Results flagged for a closer look

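In the pathway lists, 2 genes stood out when the genotype differences of both days were set side by side, and for neither did the test of that difference pass after adjustment. Zbp1 had a smaller difference between day 12 and day 0 in Def6-/- than in WT, with an interaction of -1.38 on the log2 scale that passed an unadjusted p of 0.05 (limma adjusted p = 1.0), from 2 to 25 reads per library. Irf1 was higher in both Def6-/- libraries than in both WT libraries at day 0 and lower in both at day 12, and its interaction of -0.53 did not pass (limma adjusted p = 1.0).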

How the results depend on the processing

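The number of synthetases passing at day 12 between genotypes, 4, became 0 with a pseudocount of 0.1 and 1 with DESeq2, and it was 3 to 5 in the other alternatives that kept all libraries. With no filter 1 synthetase passed at day 0 (Oas1c), 2 in the rise in Def6-/- and 1 (Oas2) in the interaction, and with a pseudocount of 0.1 the rise in WT passed for 2. Leaving out 1 library at a time gave 0 to 5 at day 12, 0 to 1 at day 0, 2 to 4 for the rise in WT, 0 to 2 for the rise in Def6-/- and 0 to 2 for the interaction, where a group left with 1 library was assumed to vary like the others. Oas1a at day 0 turned to -0.0622 in edgeR and -0.0720 in DESeq2. Leaving out a library turned the sign at day 0 of Oas1a (range -0.61 to 0.76), Oas2 (-0.22 to 0.87) and Oasl2 (-1.35 to 0.45), and at day 12 of Oas1c (-0.76 to 0.20). Of 351 single-gene and median values under alternatives that kept all libraries, 18 lost and 4 gained a call, 2 changed sign, and 59 without a test moved by more than the spread between libraries. The causes were not tested. The sources used here do not say whether the replicate numbers mark a shared litter or batch, and same-numbered libraries correlated by 0.04 to 0.33 in their deviations. A fit with the replicate block called 4 synthetases at day 12 between genotypes and 4 in the WT rise, where Oas1b had adjusted p = 0.0518. Over all genes, the alternatives that kept all libraries called 24 to 261 genes lower at day 12, 53 to 231 at day 0 and 9 to 144 in the interaction, against 73, 162 and 52. Without WT replicate 2 of day 0 these counts were 203, 2451 and 1538, without WT replicate 1 of day 0 they were 204, 275 and 229, and without any other library they were 47 to 72, 101 to 166 and 32 to 51. With CPM as deposited, 30.0% of calls at day 12 and 27.7% at day 0 were lower in Def6-/-, against 42.2% and 57.0%. The library sizes of all reads were an alternative added after seeing the data and changed no count of synthetases by more than 1. With 0 to 29 reads per library for members other than Oasl2, counting error limits each value.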
